A study of Mus musculus with 6 samples.

Results

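Sirtuins are the NAD+-dependent deacylases of the cell, and in mouse the family is encoded by 7 genes, Sirt1 to Sirt7, which were read on expression arrays of a myoblast line pair with and without silencing of PARP2. The members were the named genes, each taken from the brightest probe set whose platform annotation names that gene alone, and all 7 of them were found among 19938 genes read in this way. Each sirtuin had 1 probe set naming it and no probe set shared with another gene. The samples were C2C12 cells, a mouse myoblast line, that had been given by lentivirus either a small hairpin RNA against PARP-2 (shPARP2) or a scrambled one (scPARP2). All cells were grown in the same high-glucose medium with fetal calf serum, and both lines carry a lentiviral insert. Each line gave 3 samples of total RNA, and each sample was read on its own Affymetrix Mouse Gene 1.0 ST array. The C2C12 pair is 1 shPARP2 line against 1 scPARP2 line, so that an effect of the silencing cannot be told apart from a difference between 2 separately made lines. Whether the 3 samples of each kind came from separate cultures is not given in the sources used here, and p-values then measure only how far these samples scatter, which may be technical.

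A sirtuin cleaves NAD+ while it removes an acetyl or another acyl group from a lysine, so that its activity is tied to the supply of NAD+. PARP1 and PARP2 draw on the same NAD+ to build poly(ADP-ribose) chains. SIRT1, SIRT6 and SIRT7 are chiefly nuclear, SIRT2 is chiefly cytosolic, and SIRT3, SIRT4 and SIRT5 reside in mitochondria. In skeletal muscle SIRT1 is best known as the deacetylase of PGC-1alpha, the coactivator that drives mitochondrial biogenesis.

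In shPARP2 cells Sirt1 was the sirtuin called higher, and Sirt5 had the largest fall among those that passed the test. The windows before their transcription starts are printed here to show the base composition of each. Whether the windows bear on the changes was not tested. Both are the 250 bases before the RefSeq start, written 5′ to 3′ on the gene's own strand of GRCm38.p6, with matches to 4 motifs in capitals: the GC box GGGCGG, the CCAAT box CCAAT, the E-box CACGTG and the antioxidant response core TGACNNNGC, each searched on both strands. The Sirt1 window is chr10:63339036-63339285 on the minus strand and the Sirt5 window is chr13:43365285-43365534 on the plus strand.
Sirt1: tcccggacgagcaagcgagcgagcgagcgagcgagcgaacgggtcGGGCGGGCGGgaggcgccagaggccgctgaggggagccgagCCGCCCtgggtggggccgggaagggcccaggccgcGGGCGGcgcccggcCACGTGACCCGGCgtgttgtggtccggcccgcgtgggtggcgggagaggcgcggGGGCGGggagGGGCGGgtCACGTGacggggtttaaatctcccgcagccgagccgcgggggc
Sirt5: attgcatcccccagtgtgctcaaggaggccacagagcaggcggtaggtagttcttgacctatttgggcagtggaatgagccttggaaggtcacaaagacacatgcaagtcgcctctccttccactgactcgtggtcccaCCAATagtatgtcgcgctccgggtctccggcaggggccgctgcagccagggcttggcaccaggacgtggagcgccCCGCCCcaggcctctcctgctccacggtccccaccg

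The Sirt1 window was 79.2% G and C, which placed it at the 98.6th percentile of 32851 mouse promoter windows of this length. It held 6 GC boxes, 2 of which overlap in the first run of capitals, 2 E-boxes, and 1 antioxidant response core that overlaps the first E-box. The Sirt5 window was 62.8% G and C, at the 79.2nd percentile, with 1 GC box and 1 CCAAT box. Over all windows, 32.7% held a GC box, 33.8% a CCAAT box, 6.02% an E-box and 10.2% an antioxidant response core. Sirt1 was the only sirtuin with an E-box in its window. An antioxidant response core was also found in 1 of the 2 windows of Sirt3, which is not printed here. A match describes letters only and is no evidence that a factor binds there.

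Parp2, the targeted gene, was lower in the samples labelled as silenced. It read 8.94, 9.13 and 9.05 on the log2 scale in the scPARP2 samples and 7.86, 8.14 and 7.91 in the shPARP2 samples, a log2 fold change of -1.07 (standard error, SE, 0.10, limma adjusted p = 0.00103). The array medians lay between 7.04 and 7.18 and the shPARP2 arrays varied more, with a median SD per gene of 0.125 against 0.0613. Of the 8 myoblast and muscle markers 6 were called higher in shPARP2 cells, beside 12.4% of all genes. With 1 array left out, 4 to 5 of them were. All 8 lay above the median signal of the array. Pax7, named after its value was seen, did so only just, at the 50.6th percentile, with a log2 fold change of -0.05. Their summed signal on the linear scale ran from 10638 to 11021 in scPARP2 and from 15414 to 20030 in shPARP2 samples. Such a sum follows its brightest genes. Acta1, the brightest of the 8 by mean signal, had log2 means of 11.57 in scPARP2 and 12.77 in shPARP2. Acta1, the skeletal actin, and Myf5 and Myog, both myogenic regulators, had log2 fold changes of 1.20, 1.13 and 0.83. Myod1, named after its value was seen, had one of -0.20 (limma adjusted p = 0.753). It read 9.79, 9.85 and 9.82 in scPARP2 and 9.79, 10.19 and 8.89 in shPARP2 samples, with shPARP2 replicate 3 far below the others. Among markers of other cells, all 6 endothelial and epithelial genes and 4 of the 6 leukocyte genes lay below the median signal, and none was higher in shPARP2 cells. Cd68, a lysosomal protein of macrophages that other cells also make, fell by 0.72 on the log2 scale, and Tek and Epcam had log2 fold changes of -0.31 and -0.11 and did not pass. The summed signal of the leukocyte genes ran from 650.4 to 681.8 in scPARP2 and from 537.2 to 555.4 in shPARP2 samples. Cd68 was the brightest of these genes by mean signal and the one that passed, so this sum largely follows Cd68. The sum of the endothelial and epithelial genes ran from 498.2 to 537.1 and from 451.1 to 541.4. The 6 adipocyte genes summed to between 2344 and 2419 in scPARP2 and between 1988 and 2040 in shPARP2 samples, and the fall of Cebpa, an adipogenic transcription factor, was the one among them that passed the test (log2 fold change -1.16). The part of these marker differences in the sirtuin values was not tested. In bulk RNA fewer cells of a type and less RNA per cell cannot be told apart.

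In shPARP2 cells Sirt1 was higher, Sirt2, Sirt4 and Sirt5 were lower, and Sirt3, Sirt6 and Sirt7 did not pass the test. Values are log2 signal after RMA, and a sirtuin was called at an adjusted p under 0.05 from limma, with the Benjamini-Hochberg adjustment over all 35556 probe sets. By this rule 24.0% of all genes were called, 12.4% as higher and 11.6% as lower, against 4 of the 7 sirtuins, 1 higher and 3 lower. The called sirtuins changed by 1.18-fold to 1.39-fold, and none of the 7 reached 1.5-fold. The median log2 fold change of the sirtuins was -0.23, beside -0.02 over all genes, and their median absolute change was 0.30, beside 0.14. The shPARP2 and scPARP2 samples did not overlap for 6 of the 7 sirtuins, as was the case for 42.1% of all genes. All 7 sirtuins lay above the median signal of the array, while the values over all genes include dim ones. A comparison with genes of like signal was not made. The set is small, and the calls rest on few arrays: the number of lower sirtuins was 3 with all arrays and 0 without any one of the scPARP2 replicates, and 1 without shPARP2 replicate 1. Sirt1 was the 1 higher sirtuin with all arrays, and the number was 0 without scPARP2 replicate 2 or 3. Calls over all genes dropped too. Lower genes numbered 2308 with all arrays and 1351, 1281 and 1317 without scPARP2 replicate 1, 2 and 3. Higher genes numbered 2469 with all arrays and 1490 and 1390 without scPARP2 replicate 2 and 3.

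**Figure D1:**
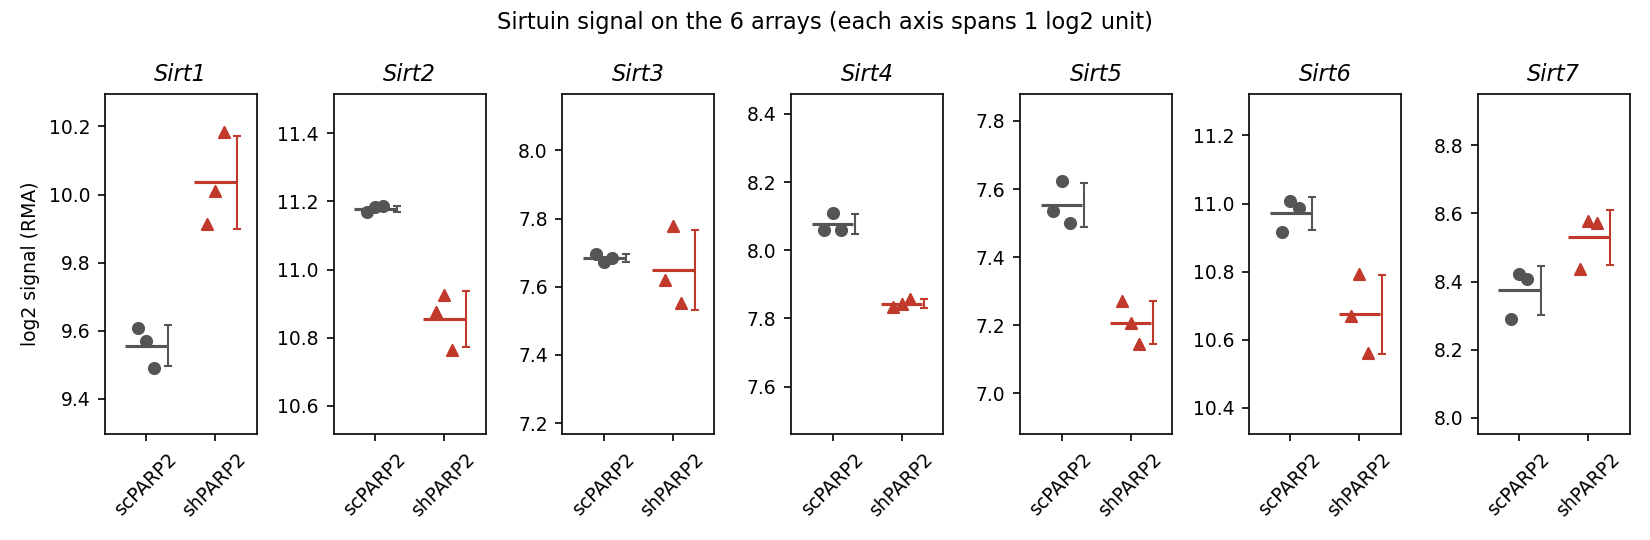
Log2 signal (vertical axis, RMA values, each panel spanning 1 log2 unit) of the 7 sirtuins on the 3 scPARP2 arrays (grey circles) and the 3 shPARP2 arrays (red triangles), with the mean as a horizontal line and the SD as a bar. The samples of the 2 cell lines separate upwards for Sirt1 and downwards for Sirt2, Sirt4, Sirt5 and Sirt6. For Sirt7 the nearest samples almost touch, and for Sirt3 the samples overlap.

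Among the nuclear sirtuins, Sirt1 rose. SIRT1 deacetylates transcription factors and coactivators, among them p53, FOXO proteins and PGC-1alpha. Its probe set (10369738) read 9.61, 9.57 and 9.49 in the scPARP2 samples and 9.91, 10.01 and 10.18 in the shPARP2 samples. Every shPARP2 sample lay above every scPARP2 sample, with 0.30 log2 units between the nearest pair. The means were 9.56 ± 0.06 (SD, n = 3) and 10.04 ± 0.14 (SD, n = 3), a log2 fold change of 0.48 (SE 0.09, 95% confidence interval, CI, 0.27 to 0.69, limma adjusted p = 0.0128). This is a 1.39-fold higher signal, and the change of Sirt1 was larger in size than that of 85.4% of all genes. Leaving out scPARP2 replicate 2 or 3 ended the call of Sirt1, at an adjusted p of 0.0532 and 0.0632, while the log2 fold change stayed between 0.41 and 0.54 whichever array was left out.

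Sirt6 and Sirt7, the other nuclear members, did not pass the test. SIRT6 acts on histone tails and on sites of DNA damage, and its probe set (10371256) read 10.92, 11.01 and 10.99 in scPARP2 and 10.67, 10.79 and 10.56 in shPARP2 samples. The samples of the 2 lines did not overlap, and the fitted difference lay right beside the threshold, at -0.30 on the log2 scale (SE 0.08, 95% CI -0.49 to -0.10, limma adjusted p = 0.0501). Under 7 of 14 alternative settings the fall of Sirt6 passed, with an adjusted p down to 0.0125, and under the other 7 it did not, with an adjusted p up to 0.171. Ankrd24, which starts 972 bases from Sirt6 on the opposite strand, had a log2 fold change of -0.08 (limma adjusted p = 0.738). SIRT7 works in the nucleolus, where it promotes transcription of ribosomal RNA genes. Sirt7 (10393866) read 8.29, 8.42 and 8.41 in scPARP2 and 8.44, 8.58 and 8.57 in shPARP2 samples. The nearest samples of the 2 lines were 0.01 log2 units apart, and the log2 fold change was 0.16 (SE 0.08, 95% CI -0.03 to 0.34, limma adjusted p = 0.239).

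Sirt2, which encodes the cytosolic sirtuin known for deacetylating alpha-tubulin, fell. Its probe set (10551570) read 11.17, 11.18 and 11.19 in scPARP2 and 10.87, 10.92 and 10.77 in shPARP2 samples. The scPARP2 samples lay within 0.02 log2 units of each other and all above the shPARP2 samples, which spread over 0.16. The log2 fold change was -0.32 (SE 0.07, 95% CI -0.49 to -0.16, limma adjusted p = 0.0202), and the signal in shPARP2 cells was 79.9% of that in scPARP2 cells. Leaving out scPARP2 replicate 1, 2 or 3 or shPARP2 replicate 1 brought the adjusted p of Sirt2 to 0.0814, 0.0854, 0.0940 and 0.0522, and with each array centred on its median it came to 0.0723. In the RefSeq table Sirt2 and Nfkbib, an inhibitor of NF-kappaB, start 106 bases apart on opposite strands. Nfkbib had a log2 fold change of 0.10 (limma adjusted p = 0.348).

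Of the mitochondrial sirtuins, Sirt4 and Sirt5 fell and Sirt3 showed no detectable difference. SIRT5 removes succinyl, malonyl and glutaryl groups from mitochondrial enzymes. Sirt5 (10404815) read 7.54, 7.62 and 7.50 in scPARP2 and 7.27, 7.21 and 7.15 in shPARP2 samples. All shPARP2 samples were below all scPARP2 samples, with a log2 fold change of -0.35 (SE 0.07, 95% CI -0.51 to -0.18, limma adjusted p = 0.0180), and the shPARP2 signal was 78.7% of the scPARP2 signal. The call held in 10 of 14 alternative settings. Among the others, its adjusted p was 0.0717, 0.0842 and 0.0615 without scPARP2 replicate 1, 2 and 3.

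SIRT4 is a weak deacetylase with lipoamidase and ADP-ribosyltransferase activity that restrains glutamate dehydrogenase and pyruvate dehydrogenase. Sirt4 (10532999) read 8.06, 8.11 and 8.06 in scPARP2 and 7.83, 7.84 and 7.86 in shPARP2 samples. The samples of each line lay close together and the lines did not overlap. The log2 fold change of -0.23 (SE 0.06, 95% CI -0.38 to -0.09, limma adjusted p = 0.0391) left 85.1% of the signal, the smallest change among the called sirtuins. This call held in 6 of 14 alternative settings. Among the others, it ended without each array except shPARP2 replicate 2 (adjusted p from 0.0525 to 0.164), with each array centred on its median (0.100) and with a trended and robust variance (0.0508). Gm42007 starts 151 bases from Sirt4 on the opposite strand and was not analysed here.

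SIRT3 is the main deacetylase of the mitochondrial matrix. Sirt3 (10568997) read 7.70, 7.67 and 7.68 in scPARP2 and 7.62, 7.78 and 7.55 in shPARP2 samples. The scPARP2 values fell inside the range of the shPARP2 values. The log2 fold change was -0.03 (SE 0.08, 95% CI -0.22 to 0.15, limma adjusted p = 0.836). A change within this interval cannot be told from the spread. Sirt3 starts 83 bases from Psmd13, a proteasome subunit gene on the opposite strand, and Psmd13 had a log2 fold change of 0.07 (limma adjusted p = 0.690).

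By mean signal over the 6 arrays, none of these probe sets lay under the 40th percentile. The mean signal of the 7 sirtuins lay between the 54.4th percentile of all probe sets, for Sirt5, and the 91.6th, for Sirt2, with Sirt6 at the 90.3rd, Sirt1 at the 81.7th, Sirt7 at the 67.9th, Sirt4 at the 62.2nd and Sirt3 at the 58.5th. These percentiles place the mean signals on the array and do not order the transcripts by amount, since probe sets differ in how brightly they read. Sirt5, the lowest, came close to the middle of the array in shPARP2 cells. It read 7.27, 7.21 and 7.15 there, where the medians of the same arrays were 7.13, 7.04 and 7.18.

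**Figure D2:**
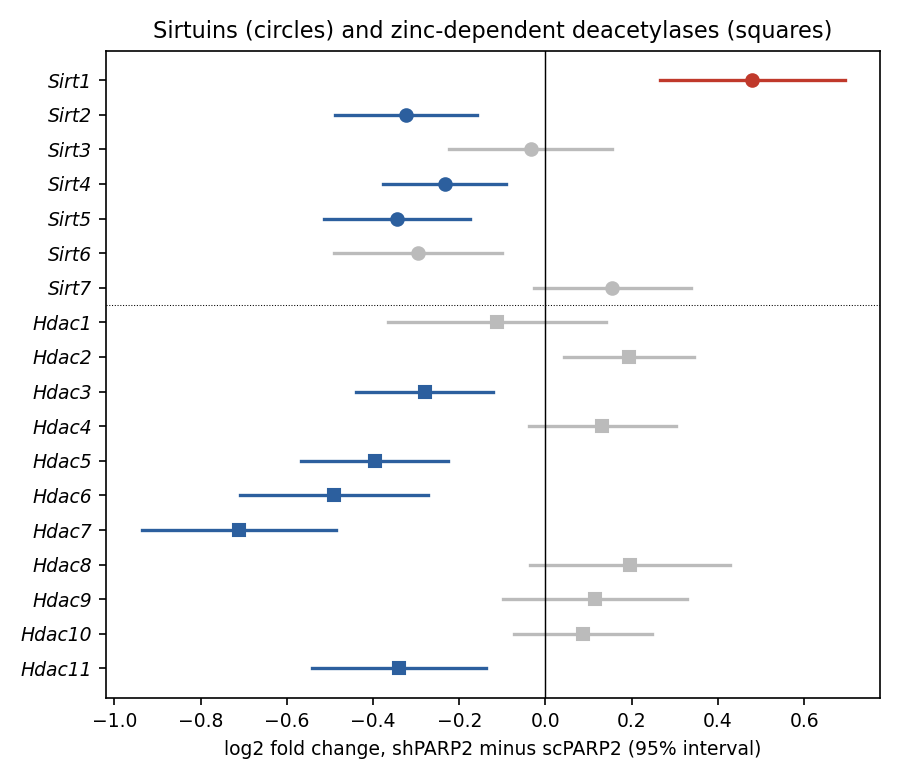
Log2 fold change between shPARP2 and scPARP2 cells (horizontal axis, shPARP2 minus scPARP2) of the 7 sirtuins (circles) and the 11 zinc-dependent histone deacetylases (squares), with 95% confidence intervals as bars. Red marks genes called higher, blue genes called lower and grey genes that did not pass; Sirt1, at 0.48, is the one red point, and the blue points run from -0.23 for Sirt4 to -0.71 for Hdac7.

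The other lysine deacetylases of the cell, the zinc-dependent histone deacetylases, need no NAD+. Of their 11 genes, 5 fell and 0 rose, and the other 6 did not pass, with a median log2 fold change of -0.11, where 11.6% of all genes fell and 12.4% rose. The genes that fell most were Hdac7, Hdac6 and Hdac5. HDAC7 and HDAC5 are class IIa enzymes that bind MEF2 factors in muscle, and HDAC6, like SIRT2, deacetylates tubulin. Hdac7 had a log2 fold change of -0.71 (limma adjusted p = 0.00354), Hdac6 one of -0.49 (adjusted p = 0.0127) and Hdac5 one of -0.40 (adjusted p = 0.0113). The lower genes of this family numbered 2, 1 and 2 without scPARP2 replicate 1, 2 and 3, and 3 without shPARP2 replicate 3. A set of 7 and one of 11 genes are described side by side here, and their difference was not tested.

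Of 20 genes that make, move and use NAD+ 19 were measured, 4 were higher, 3 were lower, Parp2 itself among them, and 12 did not pass, beside 12.4% of all genes higher and 11.6% lower. Nnmt, which methylates nicotinamide and so removes it from salvage, rose from 8.75 to 10.45, a log2 fold change of 1.70 (limma adjusted p = 5.64e-05). Nmnat2, a cytosolic enzyme that makes NAD+ from its mononucleotide, rose by 0.63 on the log2 scale (limma adjusted p = 0.0116). Slc25a51, the carrier that brings NAD+ into mitochondria, had a log2 fold change of -0.57 (limma adjusted p = 0.00832). Nampt, the rate-limiting enzyme of NAD+ salvage, which is named after its value was seen, had one of 0.36 (limma adjusted p = 0.0157). The higher genes of this list numbered 2 without scPARP2 replicate 2 or 3.

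Among 8 regulators of SIRT1, 1 rose, 2 fell and 5 did not pass, beside 24.0% of all genes called, so that the count says little about the list. Ccar2, which encodes the inhibitor of SIRT1 also known as DBC1, had a log2 fold change of -0.35 (SE 0.06, limma adjusted p = 0.00899). Usp22, a deubiquitinase that stabilizes SIRT1, had one of -0.37 (SE 0.08, limma adjusted p = 0.0208). Elavl1, which encodes the RNA-binding protein HuR that binds the Sirt1 transcript, rose by 0.27 (SE 0.07, limma adjusted p = 0.0390). Leaving out scPARP2 replicate 1 or 2 gave 0 fallen genes, leaving out scPARP2 replicate 3 or shPARP2 replicate 1 gave 1, and the count of risen genes was 0 in each such fit except the one that left out shPARP2 replicate 2.

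The proteins that sirtuins deacylate were followed by their transcripts. Of 16 nuclear and cytosolic substrates 14 were measured, 2 rose, 3 fell and 9 did not pass, beside 24.0% of all genes called. Ppargc1a, which encodes PGC-1alpha, fell from 10.10 to 6.39, a log2 fold change of -3.72 (SE 0.10, limma adjusted p = 2.44e-05), and a dimmer probe set of the gene had one of -3.59. In shPARP2 cells these probe sets read in the dim part of the array, at the 35.3rd and the 12.9th percentile of the shPARP2 means, so the size of the fall is no exact value. Acss2, the cytosolic acetyl-CoA synthetase that SIRT1 activates, rose by 1.04 (SE 0.19, limma adjusted p = 0.0112). The FOXO genes went both ways: Foxo1 had a log2 fold change of -0.64 (limma adjusted p = 0.00118). Foxo3, named after its value was seen, had one of 0.42 (limma adjusted p = 0.00939). Foxo4, also named after its value was seen, had one of -0.32 and just missed the threshold (limma adjusted p = 0.05002). The higher genes of this list numbered 1 without scPARP2 replicate 2 or 3.

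Of 15 mitochondrial substrates 14 were measured, 2 rose, 3 fell and 9 did not pass, beside the same 24.0% of all genes. Ppif, which encodes cyclophilin D of the permeability transition pore, had a log2 fold change of -0.90 (limma adjusted p = 0.000322). Pdha1, a subunit of pyruvate dehydrogenase and thus of the complex that SIRT4 acts on, rose by 0.73 (limma adjusted p = 0.00165), and Aldh2, the mitochondrial aldehyde dehydrogenase, had one of -0.56 (limma adjusted p = 0.00847). Glud1, the glutamate dehydrogenase that SIRT4 modifies, had a log2 fold change of 0.07, and Cps1, the urea cycle enzyme that SIRT5 activates, one of -0.20, with adjusted p-values of 0.667 and 0.108 from limma; both are named after their values were seen. Cps1 was dim, at the 37.4th percentile. The higher genes numbered 1 without any scPARP2 replicate or without shPARP2 replicate 2 or 3, and the lower ones 5 without shPARP2 replicate 2.

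**Figure D3:**
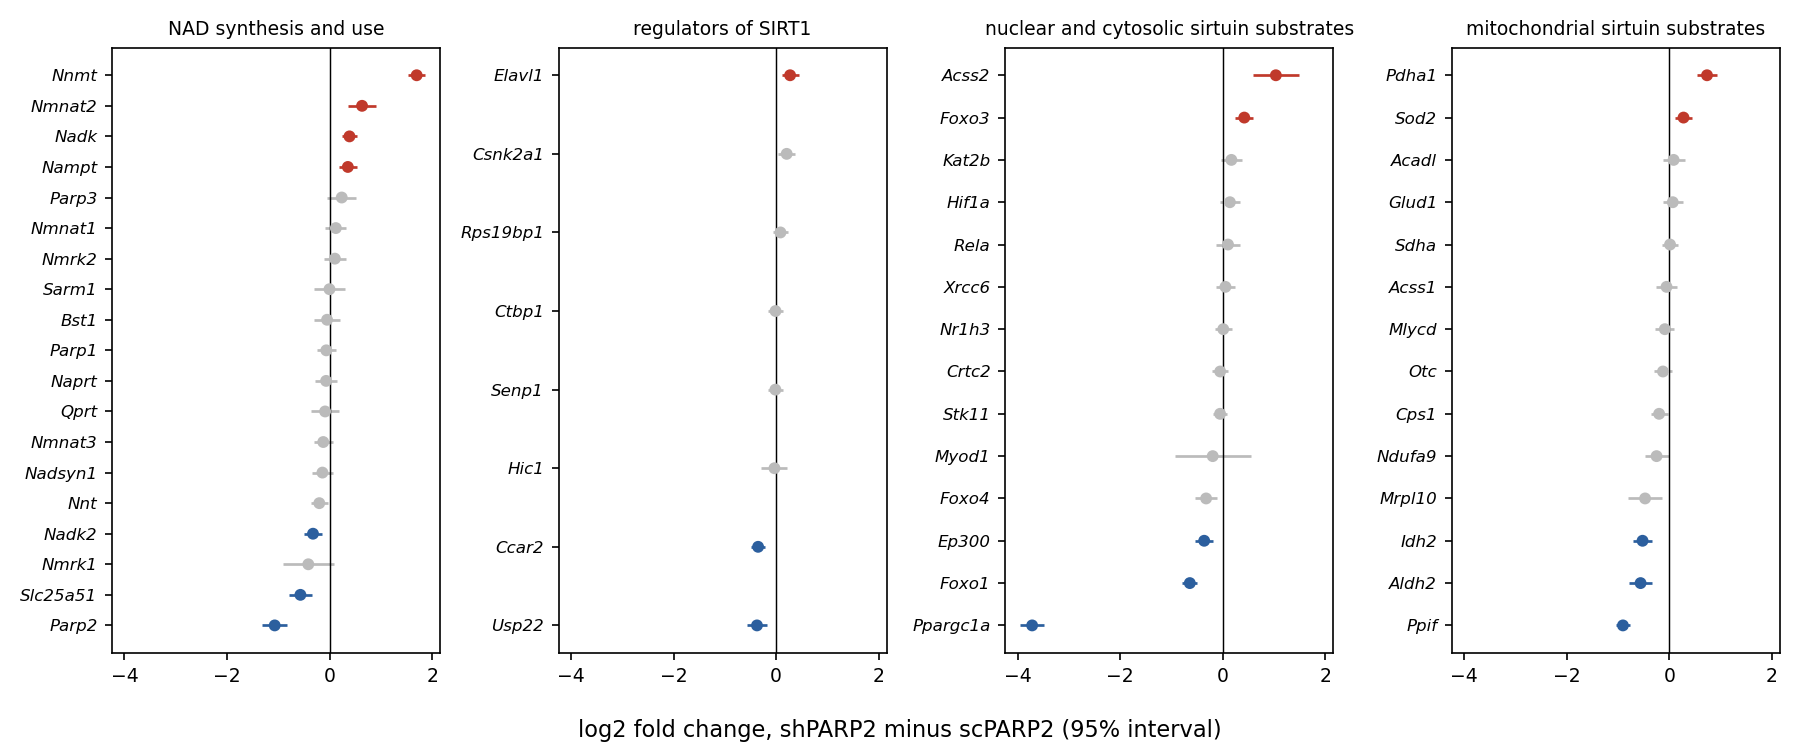
Log2 fold change between shPARP2 and scPARP2 cells (horizontal axis, 95% confidence intervals as bars) of genes of NAD+ synthesis and use, regulators of SIRT1 and nuclear or mitochondrial sirtuin substrates, ordered by their value in each panel. Red and blue points passed the test as higher or lower and grey points did not; the farthest points are Ppargc1a at -3.72 and Nnmt at 1.70.

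For each sirtuin the pair of genes with the most similar course over the 6 arrays was sought by Pearson's r among all genes, as a description only. For Sirt1 these were Gmeb1 and Aven (r = 0.9997 and 0.999), for Sirt2 Cln6 and Znrd2 (0.999 each), for Sirt4 Galnt7 and Cd68 (0.999 each) and for Sirt6 Nagk and Tspan14 (0.999 and 0.998). For Sirt5 they were the probe set annotated Mir302d and Pced1a (0.998 and 0.996), for Sirt3 Tti2 and Zmat5 (0.997 and 0.996) and for Sirt7 Fxr2 and Casc3 (0.993 and 0.990). The points are 3 arrays of each of 2 lines. For Sirt3, Tti2 and Zmat5, whose log2 fold changes were -0.03, -0.05 and -0.07, the lines differed little, and the r describes the scatter of the arrays. At an r above 0.95 there were 1228 genes for Sirt1, 1473 for Sirt2, 1417 for Sirt4, 1012 for Sirt6 and 701 for Sirt5, but 89 for Sirt3 and 51 for Sirt7, the members whose lines overlapped or almost touched.

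**Figure D4:**
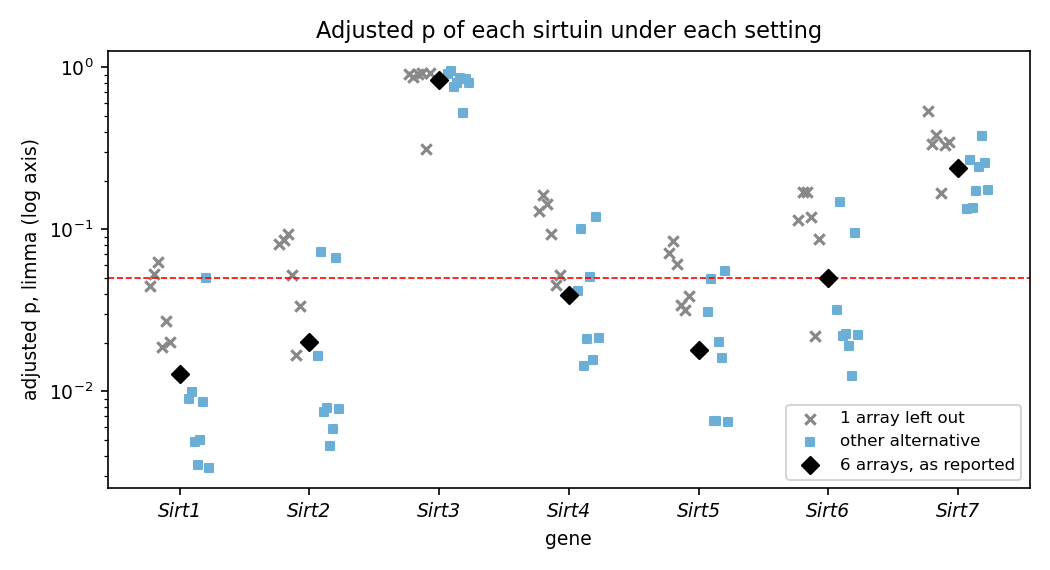
Adjusted p from limma (vertical log axis) of each sirtuin with all 6 arrays (black diamonds), without 1 array (grey crosses) and under the 8 other alternatives (blue squares), with the threshold of 0.05 as a dashed line. Sirt1 lies below the line in 12 of 14 alternatives, Sirt5 in 10, Sirt2 in 8, Sirt6 in 7 and Sirt4 in 6, while Sirt3 and Sirt7 lie above it throughout.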

How the data were processed

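The deposited values are log2 signals of 35556 probe sets on 6 arrays. Per the labels, the authors of the arrays used RMA, with the version and the genome build not given in the sources used here. RMA brings the arrays close to each other, so most of a shift common to all genes would not be seen. The array medians still ran from 7.04 to 7.18. Groups came from the sample titles. Gene names came from the platform annotation and were brought to current RefSeq symbols by gene ID, with 21789 probe sets naming 1 gene, 1621 naming several and 12146 unnamed here.

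The difference shPARP2 minus scPARP2 was fitted per probe set by lmFit and eBayes without covariates (limma 3.58.1, R 4.3.3), and p-values were adjusted by Benjamini-Hochberg over every probe set; the calculation was tested on simulated data. Arrays give no depth; their number limits the precision. The members and lists were chosen with earlier results of these data known. Named genes are the sirtuins, Parp2, in each list up to 3 genes that passed with the largest change (where none passed, the 2 with the smallest p), the likest pair of genes for each sirtuin, and genes starting within 1 kb of a sirtuin, added later; others are marked as named after their values were seen. Some listed genes are not reported here. Promoter windows are from RefSeq (GRCm38.p6), where all 7 sirtuins matched. Settings varied one at a time were the normalization (quantile), the centring (array median), the probe sets tested (none under the 40th percentile of mean signal, or those of a single gene), the variance prior (trended, robust), weights per array, a replicate block, the threshold (0.01, or 0.05 with at least 1.5-fold), the arrays (each omitted in turn) and the mean over a gene's probe sets. Drawings were made with matplotlib 3.10.9.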

Additional observations from a re-analysis of the deposited data

How the results depend on the processing

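The log2 fold changes of Parp2 and of every sirtuin but Sirt3 kept their direction in all 14 alternative fits. Most of these fits could not have turned it. Varying the probe sets tested, the variance prior, the replicate block or the averaging left the fitted value unchanged. Where the samples of the lines do not overlap, omitting or weighting arrays cannot turn a direction. Only quantile normalization and centring could have done so. The log2 fold change of Sirt3 ran from -0.10 to 0.01 when 1 array was left out and turned to 0.0147 without shPARP2 replicate 3. Parp2 passed in all 14 and Sirt3 and Sirt7 in 0. With 1 array left out, the log2 fold changes ran from 0.41 to 0.54 for Sirt1, -0.36 to -0.28 for Sirt2, -0.24 to -0.22 for Sirt4, -0.38 to -0.31 for Sirt5 and -0.36 to -0.24 for Sirt6. Centring on the array median ended the calls of Sirt2 (-0.30) and Sirt4 (-0.21), and a trended and robust variance that of Sirt4 (-0.23). Sirt6 passed with quantile normalization (-0.33) and array weights (-0.31) and, at -0.30, without dim probe sets, among single-gene probe sets only, with a trended and robust variance and with probe sets averaged per gene. The cause of these changes was not tested.

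Same-numbered samples of the lines did not deviate together over all probe sets (correlations of -0.05, 0.09 and 0.01). Only the sample pair of replicate 2 correlated best with its own number. No pairing by number was thus seen, but with 3 samples per line a pairing in part of the genes could be missed. With the replicate block Sirt2 (-0.32), Sirt4 (-0.23) and Sirt5 (-0.35) did not pass, 0 sirtuins were lower, and 1790 genes were higher and 1660 lower, against 2469 and 2308 without it; regulators of SIRT1 then numbered 0 higher and 1 lower, mitochondrial substrates 1 higher and zinc-dependent deacetylases 3 lower.

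An adjusted p under 0.01 left 1736 probe sets higher and 1589 lower, 1352 genes higher and 1228 lower and 0 sirtuins in either direction; a change of at least 1.5-fold left 1458, 1327, 1051, 961 and 0. Under both thresholds, 2 genes of NAD synthesis and use, 0 regulators of SIRT1, 1 nuclear and 1 mitochondrial substrate were higher and 1 zinc-dependent deacetylase was lower; regulators of SIRT1 had 1 lower gene at 0.01 and 0 at 1.5-fold, and at 1.5-fold 1 gene of NAD synthesis and use and 1 mitochondrial substrate were lower and 3 muscle markers higher. Centring gave 1 lower sirtuin and 1 lower regulator of SIRT1. Array weights gave 4941 lower probe sets, 5 lower genes of NAD synthesis and use and 5 lower mitochondrial substrates. Without dim probe sets, and with a trended and robust variance, 2 regulators of SIRT1 and 1 zinc-dependent deacetylase were higher. Quantile normalization gave 1 lower endothelial or epithelial marker.

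With 1 array left out, 1842 to 3449 probe sets and 1390 to 2448 genes were higher and 1761 to 3782 probe sets and 1281 to 2721 genes lower. Higher and lower sirtuins numbered 0 to 1 and 0 to 4, regulators of SIRT1 0 to 1 and 0 to 2, higher genes of NAD synthesis and use 2 to 4, higher nuclear substrates 1 to 2, mitochondrial substrates 1 to 2 and 3 to 5, and lower zinc-dependent deacetylases 1 to 5.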
